A study of Homo sapiens with 2 samples.

Results

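Autotaxin (ENPP2), the lysophosphatidic acid receptors LPAR1, LPAR2, LPAR3, LPAR5 and LPAR6, and galectin-3 (LGALS3) were examined in A375SM, a highly metastatic human melanoma cell line. These 7 genes were taken by symbol from the deposited table, and all 8 of its probes that name 1 of them were used, among 29187 probes and 19412 genes in all. The line labelled NFAT1-shRNA carried a lentiviral short hairpin RNA (shRNA) aimed at NFAT1 (gene NFATC2), a transcription factor that calcineurin activates when calcium rises in the cell. The line labelled NT-shRNA carried a non-targeting shRNA in the same cells. Both lines were grown in the same medium with serum, and both had been sorted for the top 50% by GFP brightness, so each is a sorted population and no clone is described. The comparison asks whether transcripts of this signalling group differ between the lines. Per the design text each line had 3 biological replicates, and the table holds 1 combined Cy5 array intensity for each probe and line. Values are given with the deposited error after ±, whose kind is not stated, in place of a replicate spread, and the number of arrays limits the precision. With 1 line for each shRNA, the errors, intervals and p-values below do not measure how much independently made lines would differ. The lines are called NFAT1-shRNA and NT-shRNA cells below, as their labels have it.

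Autotaxin is a secreted phosphodiesterase that removes choline from lysophosphatidylcholine and leaves lysophosphatidic acid (LPA), a lipid that acts outside the cell. It was first purified as a motility factor from the medium of human melanoma cells. LPA binds G protein-coupled receptors of separate families: LPAR1, LPAR2 and LPAR3 belong to the EDG group, together with the receptors for sphingosine 1-phosphate, whereas LPAR4, LPAR5 and LPAR6 are nearer in sequence to the purinergic P2Y receptors. Galectin-3 is a lectin that binds beta-galactoside sugars on glycoproteins, and earlier work in melanoma cells linked it to NFAT1 and, through NFAT1, to autotaxin.

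Autotaxin and LPAR1 were lower in NFAT1-shRNA cells, while LPAR6 and galectin-3 did not pass the test and LPAR2, LPAR3 and LPAR5 were detected in neither line. Detection means a deposited detection p-value under 0.01, and a gene is called changed at a Benjamini-Hochberg adjusted p under 0.05, computed here from the authors' p-values over the 9516 genes with a ratio. By this rule 2 of the 4 genes with a ratio fell and none rose, against a background of 7.55% of all genes called in either direction, 4.19% called lower and 3.35% called higher. With the plain quotient of intensities, which has no centring, 93.5% of all calls were higher, against 44.4% with the authors' ratio. The genes were chosen with earlier results of these data known, so this count describes them and does not test them as a group. The median of the 4 log2 fold changes in the authors' deposited table was -0.73, beside -0.02 for all genes. All 4 ratios were negative there, and in the plain quotient LPAR6 was positive.

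NFATC2, the gene the shRNA was directed at, was not lower in NFAT1-shRNA cells, so it does not check the labels. Its brighter probe read 279.2 ± 15.7 in NFAT1-shRNA cells and 199.4 ± 15.2 in NT-shRNA cells. In the authors' deposited table its log2 fold change was 0.12 (95% interval -0.15 to 0.39). The dimmer NFATC2 probe was detected in neither line and had a ratio of -0.23 there. With the plain quotient the brighter probe stood at 0.49 and passed as higher in NFAT1-shRNA cells (adjusted p 0.00386). The position of both probes relative to the shRNA target is not stated in the sources used here, and all directions below hold between cells as labelled. Of 10 melanocyte lineage genes, 9 were detected in both lines, among them SOX10, PMEL and MLANA. The melanin enzymes TYR and DCT and the adhesion molecule MCAM rose: the authors' deposited table gives log2 fold changes of 1.63 for TYR, 1.01 for DCT and 0.77 for MCAM. The other 7 genes of this list did not pass, and 3 of them had negative ratios in the authors' deposited table: MITF at -0.50, MLANA at -0.29 and PAX3 at -0.07. These values are of the brightest probes. Another MITF probe, detected in both lines, had the opposite sign, at 0.60 (interval -0.35 to 1.55). A dimmer PAX3 probe had 0.15, and PAX3 was detected in neither line. The summed intensity of the 10 genes, without centring, was 4738 in NFAT1-shRNA cells and 2894 in NT-shRNA cells. For the median gene of the array, intensities were already 1.23-fold higher in the NFAT1-shRNA line. Of the leukocyte markers 1 of 7 was detected (CD68, in both lines), of the keratinocyte markers 1 of 5 (KRT14, in both lines), and of the endothelial markers 0 of 5. Among 6 fibroblast markers, LUM was detected in both lines and COL1A2 in NT-shRNA cells only. The leukocyte marker PTPRC read 4.78 and -1.20, and the endothelial marker PECAM1 7.35 and 7.74, in NFAT1-shRNA and NT-shRNA cells. The part of the melanocyte lineage genes in the differences below was not tested.

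ENPP2 (Entrez gene 5168), the LPA-producing enzyme itself, had a normalized intensity of 93.6 ± 11.3 in NFAT1-shRNA cells and 207.7 ± 21.2 in NT-shRNA cells. These values lie apart by more than their errors, and the intensity difference of -114.0 was larger than its combined error of 24.1. The signal was detected in both lines, with detection p-values of 0.00278 in NFAT1-shRNA cells and 2.79e-14 in NT-shRNA cells. In the NFAT1-shRNA line it lay near the dimmest signal that was detected at all there, 78.3. The log2 fold change of NFAT1-shRNA over NT-shRNA cells in the authors' deposited table was -1.47, which is 2.76-fold higher in NT-shRNA cells. The 95% interval, from the deposited errors, was -1.91 to -1.02, and the adjusted p was 1.07e-06. Ordered from the most negative ratio, ENPP2 stood at place 14 of the 6853 genes detected in both lines. Only 1 probe of the array names ENPP2, so no other probe could be set beside it.

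**Figure D1:**
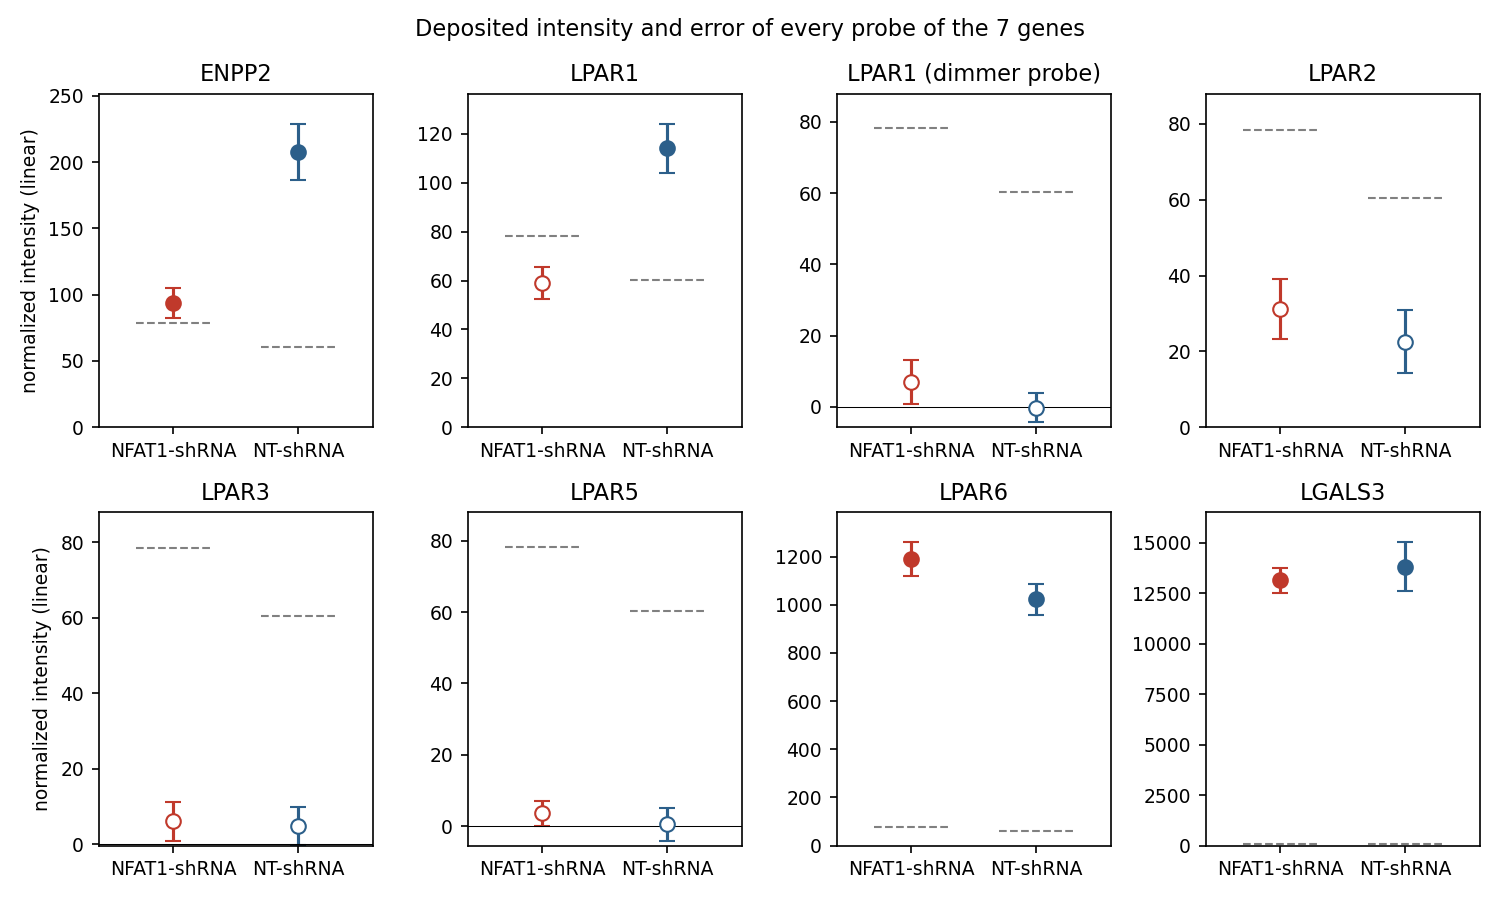
Normalized intensity (linear scale, points) with the deposited error (bars) for every probe of the 7 genes, with the NFAT1-shRNA line in red and the NT-shRNA line in blue. Filled points were detected and open points were not, and the dashed lines mark the lowest detected intensity of each line (78.3 in NFAT1-shRNA and 60.4 in NT-shRNA). ENPP2 and the brighter LPAR1 probe are lower in NFAT1-shRNA cells, and LPAR2, LPAR3, LPAR5 and the dimmer LPAR1 probe lie under the dashed lines in both lines.

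LPAR1 (Entrez gene 1902), the widely expressed receptor through which LPA is best known to drive cell migration, was measured by 2 probes. The brighter probe read 59.0 ± 6.63 in NFAT1-shRNA cells and 114.0 ± 10.1 in NT-shRNA cells. It was detected in NT-shRNA cells only, with detection p-values of 0.39 in NFAT1-shRNA cells and 1.00e-10 in NT-shRNA cells. Its intensity in NFAT1-shRNA cells therefore gives only a bound. Set against the lowest detected signal of that line after the median shift was taken out, the NT-shRNA signal was 1.80-fold higher. This bound takes the NT-shRNA signal without its deposited error, so a smaller fold lies within reach of that error. The authors' deposited table gives a log2 fold change of -1.23 for this probe (adjusted p 1.07e-06). That value is set against an undetected signal, so the bound is given beside it and no interval is given. The dimmer LPAR1 probe read 7.05 ± 6.15 in NFAT1-shRNA cells and -0.27 ± 4.15 in NT-shRNA cells. It was detected in neither line and has no ratio, so the LPAR1 result rests on 1 probe. Fewer cells that express a gene and less of its RNA per cell cannot be told apart in these bulk samples.

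LPAR6 (Entrez gene 10161), a P2Y-related receptor known for its role in hair growth, read 1189 ± 70.2 in NFAT1-shRNA cells and 1022 ± 64.1 in NT-shRNA cells. It was detected in both lines, and its deposited errors were 5.91% and 6.27% of the signal in NFAT1-shRNA and NT-shRNA cells. Its normalized intensity was higher in NFAT1-shRNA cells, by 167.0 with a combined error of 95.1, while the intensities of the NFAT1-shRNA line were 1.23-fold higher for the median gene. After the authors' centring, the log2 fold change in the authors' deposited table was -0.08 (interval -0.33 to 0.16, adjusted p 0.853). The interval leaves room for a level between 0.798 and 1.12 times that of the NT-shRNA line. The ENPP2 ratio minus the LPAR6 ratio was -1.38 on the log2 scale of the authors' deposited table (interval -1.89 to -0.87), an interval that lies wholly below 0. For LPAR1, whose value is a bound, no such difference is given.

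The other LPA receptors were detected in neither line. LPAR2 (Entrez gene 9170), an EDG-group receptor, read 31.1 ± 7.94 in NFAT1-shRNA cells and 22.6 ± 8.38 in NT-shRNA cells, a difference of 8.52 with a combined error of 11.5. LPAR3 (Entrez gene 23566), of the same group, read 6.05 ± 5.15 and 4.78 ± 5.06 in NFAT1-shRNA and NT-shRNA cells. LPAR5 (Entrez gene 57121), of the P2Y-related group, read 3.66 ± 3.55 and 0.53 ± 4.69 in NFAT1-shRNA and NT-shRNA cells. For each of these 3 receptors the difference was smaller than its combined error, and the authors' table has no ratio. LPAR4, the remaining known LPA receptor, read 35.1 ± 13.4 in NFAT1-shRNA cells and 19.4 ± 9.17 in NT-shRNA cells and was likewise undetected. A difference in these genes was not detectable at this signal, and whether they are expressed below it cannot be told from these arrays.

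LGALS3 (Entrez gene 3958), galectin-3, read 13134 ± 638.4 in NFAT1-shRNA cells and 13815 ± 1207 in NT-shRNA cells. These uncentred values overlap within their errors: the difference was -681.0 and its combined error 1365. The intensities of the NFAT1-shRNA line were, however, 1.23-fold higher for the median gene. With the quotient centred on the median of all genes, LGALS3 stood at -0.38 and did not pass (adjusted p 0.079). The log2 fold change in the authors' deposited table was -0.23 (interval -0.51 to 0.06, adjusted p 0.408). A level between 0.702 and 1.04 times that of the NT-shRNA line lies within this interval, which leaves out a decrease as large as that of ENPP2. The ENPP2 ratio minus the LGALS3 ratio was -1.24 (interval -1.77 to -0.71), and LGALS3 minus LPAR6 was -0.14 (interval -0.52 to 0.23), all from ratios of the authors' deposited table. These intervals treat the errors of the probes as independent, although all probes share the same arrays.

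**Figure D2:**
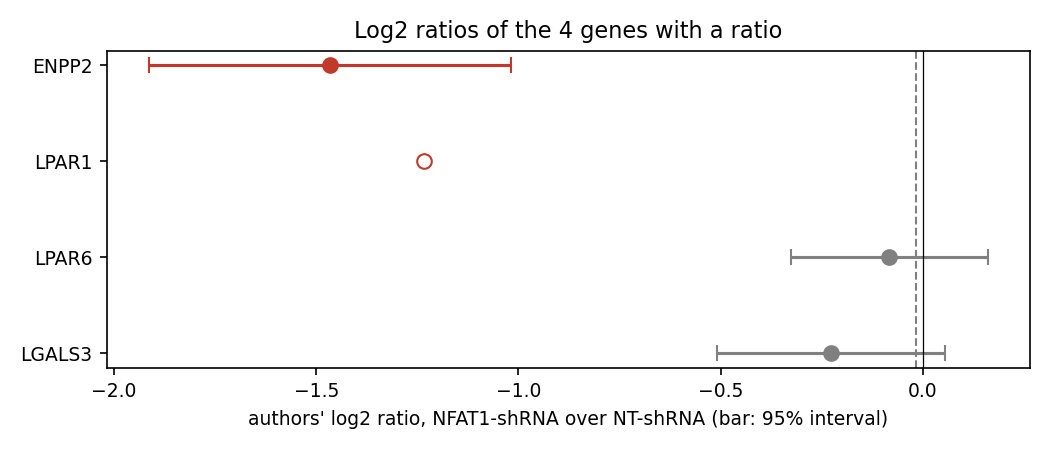
Log2 fold change of NFAT1-shRNA over NT-shRNA cells from the authors' deposited table (points) with the 95% interval from the deposited errors (bars) for the 4 genes with a ratio. Red marks an adjusted p under 0.05, the open point without a bar is LPAR1, which was not detected in NFAT1-shRNA cells, and the dashed line is the median of all genes at -0.02. The interval of ENPP2 lies wholly below 0, and those of LPAR6 and LGALS3 include it.

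NFAT proteins bind DNA at sites with the core letters GGAAA. Promoter windows of LPAR1, LPAR6 and LGALS3 are shown because the lines differ by an shRNA directed at such a factor. The promoter of ENPP2 was not used here. The windows come from RefSeq on GRCh38.p14, span 250 bases before to 50 bases after a gene's start, and are printed 5' to 3' on the gene's strand. Capitals mark GGAAA and its reverse complement TTTCC. The windows are chr9:111038949-111039248 (minus strand, the first of 6 LPAR1 windows in the direction of transcription), chr13:48413064-48413363 (LPAR6, minus strand) and chr14:55129002-55129301 (LGALS3, plus strand).
LPAR1: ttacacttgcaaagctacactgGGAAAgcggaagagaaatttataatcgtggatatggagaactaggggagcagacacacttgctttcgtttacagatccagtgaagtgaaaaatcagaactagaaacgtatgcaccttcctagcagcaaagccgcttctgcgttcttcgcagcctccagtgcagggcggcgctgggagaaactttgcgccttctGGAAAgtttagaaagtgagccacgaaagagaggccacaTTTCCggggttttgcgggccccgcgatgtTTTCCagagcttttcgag
LPAR6: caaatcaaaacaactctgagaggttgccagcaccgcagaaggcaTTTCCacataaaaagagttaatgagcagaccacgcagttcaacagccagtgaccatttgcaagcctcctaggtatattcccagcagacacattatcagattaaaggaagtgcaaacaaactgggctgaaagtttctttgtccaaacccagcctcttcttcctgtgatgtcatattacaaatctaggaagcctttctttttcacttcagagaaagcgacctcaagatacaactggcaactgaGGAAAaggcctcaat
LGALS3: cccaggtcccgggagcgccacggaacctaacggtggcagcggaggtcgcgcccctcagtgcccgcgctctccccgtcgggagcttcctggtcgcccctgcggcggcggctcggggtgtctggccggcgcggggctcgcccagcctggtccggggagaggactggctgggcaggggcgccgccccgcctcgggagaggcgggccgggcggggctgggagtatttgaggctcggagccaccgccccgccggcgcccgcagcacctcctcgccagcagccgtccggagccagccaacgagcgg
The first LPAR1 window holds 4 matches, 2 on each strand, and no match overlaps another. The other LPAR1 windows hold 1, 0, 0, 0 and 2 matches, of which the 1 is also in the first window, since these windows overlap. LPAR6 holds 2 matches, and LGALS3 holds 0. LPAR2 and LPAR3 have 2 matches each and LPAR5 has 0. Over all 35116 promoter windows of this length 61.2% hold at least 1 match, beside 6 of the 11 windows read here, which belong to the 5 LPA receptors and LGALS3 and leave out ENPP2. A match of so short a motif is common and describes the letters only.

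Lists of genes that act around these members give the wider pathway. Over 9 lists, 100 genes other than the members had a ratio, of which 6 rose and 3 fell, that is 9% called against 7.55% of all genes. Their median log2 fold change in the authors' deposited table was 0.06. The 3 that fell were PLPP4, GNAI1 and AXL, and 91 of the 100 did not pass. List medians below are of log2 fold changes from the authors' deposited table, and leaving out genes detected in neither line moved them by at most 0.02 in the 7 lists with over 1 detected gene. With the plain quotient of intensities the calls were 34 higher and 1 lower, so this split depends on how the ratio is centred.

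Of 6 other ENPP genes, the relatives of autotaxin, 0 were detected in either line and 0 had a ratio. Of 11 other lysophospholipid receptors only S1PR5, a receptor for sphingosine 1-phosphate, was detected. It read 203.8 ± 18.7 in NFAT1-shRNA cells and 172.6 ± 21.7 in NT-shRNA cells, and its log2 fold change in the authors' deposited table was -0.11, which did not pass. The 4 genes of this list with a ratio had a median of -0.36, and 0 were called. All of them except S1PR5 were undetected in both lines, so this median says little about expressed genes. The most negative ratio of this list belongs to GPR55, a receptor for lysophosphatidylinositol, which was detected in neither line and has a deposited error of 511.8 beside an intensity of 59.7 in NT-shRNA cells. Of 12 genes with a ratio that make LPA or its precursors by other routes, 0 rose and 0 fell (median 0.09). Furthest from 0 in the authors' deposited table, among detected ones, were GDPD1 at -0.65, PLA2G2A at -0.63, GPAM at -0.55 and DGKA at 0.41. GDPD1, a phosphodiesterase, was detected only in NT-shRNA cells. PLA2G2A is a secreted phospholipase, GPAM an acyltransferase and DGKA a diacylglycerol kinase. None passed the threshold as reported. DGKA passed as higher with the plain quotient, the centred quotient, the offset of 50, the mean of all probes and the propagated error.

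Among 17 measured genes for enzymes that use up LPA and for related lipid phosphatases, 2 rose, 1 fell and 14 did not pass (median 0.02). PLPP4, a lipid phosphate phosphatase, read 118.1 ± 14.2 in NFAT1-shRNA cells and 216.8 ± 17.3 in NT-shRNA cells. Its log2 fold change in the authors' deposited table was -1.21 (interval -1.62 to -0.80, adjusted p 3.31e-05). ACP6, a mitochondrial phosphatase of LPA, read 344.7 ± 21.9 in NFAT1-shRNA cells and 135.7 ± 18.6 in NT-shRNA cells. LPCAT1, an acyltransferase of lysophospholipids, read 405.6 ± 20.9 in NFAT1-shRNA cells and 171.1 ± 30.5 in NT-shRNA cells. Their log2 fold changes in the authors' deposited table were 0.97 and 0.90, with adjusted p-values of 0.0107 and 0.0134. The cell surface phosphatases PLPP1, PLPP2 and PLPP3, which remove LPA outside the cell and are named after their values were seen, did not pass on their brightest probes, at -0.07, -0.34 and 0.02 in the authors' deposited table. The probes of PLPP1 differ. Its dimmer one, detected only in NT-shRNA cells, had -0.71 there and passed, with an adjusted p of 0.00772 over all probes. The bound of this probe, without the error of its signal, was 1.55-fold higher in NT-shRNA cells. The lipid phosphatase LPIN1 had -0.56 in the authors' deposited table and did not pass either, except with the propagated error.

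No gene of the sphingosine 1-phosphate enzymes and carriers passed as reported among 4 with a ratio (median 0.35). With the plain quotient SGPL1, SPHK2 and SPHK1 passed as higher (adjusted p 0.00274, 0.013 and 0.0209), and SGPP1 did not. The lyase SGPL1 read 114.0 ± 9.90 in NFAT1-shRNA cells and 58.2 ± 9.40 in NT-shRNA cells, and was detected only in NFAT1-shRNA cells. Its dimmer probe, detected in neither line, had a ratio of the opposite sign, at -0.13 in the authors' deposited table. The kinases SPHK1 and SPHK2 had 0.48 and 0.16 and the phosphatase SGPP1 0.22 in the authors' deposited table. Of 5 other galectins with a ratio, 0 rose and 0 fell (median -0.05). Galectin-1 (LGALS1) read 10862 ± 545.2 in NFAT1-shRNA cells and 10042 ± 1284 in NT-shRNA cells, a log2 fold change of -0.06 in the authors' deposited table (95% interval -0.45 to 0.33). LGALS8 had 0.08, LGALSL -0.05 and CLC -0.05 there. As with galectin-3, no galectin passed the test as reported, and the authors' ratios of LGALS1, LGALSL and CLC turn positive in the plain quotient. LGALS8 passed as higher with the plain quotient only, at 0.37 (adjusted p 0.0369).

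Of 20 measured galectin-3 ligands and enzymes that build their glycans, 2 rose, 0 fell and 18 did not pass, with a median of 0.15. LGALS3BP, a secreted glycoprotein that binds galectin-3, read 838.4 ± 55.6 in NFAT1-shRNA cells and 347.9 ± 70.0 in NT-shRNA cells. Its log2 fold change in the authors' deposited table was 0.96 (interval 0.36 to 1.56, adjusted p 0.0206). MCAM, an adhesion molecule of melanoma and also one of the lineage genes above, read 1069 ± 75.1 in NFAT1-shRNA cells and 507.2 ± 67.6 in NT-shRNA cells (adjusted p 0.011). The integrin ITGB1 had 0.76 on the brighter and -0.25 on the dimmer probe and the lysosomal protein LAMP2 -0.65 on its brightest probe in the authors' deposited table, and neither gene passed on that probe. The other detected LAMP2 probe had -0.61 in the authors' deposited table and passed over all probes (adjusted p 0.0475), and LAMP2 also passed with the mean of all probes (adjusted p 0.00567).

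**Figure D3:**
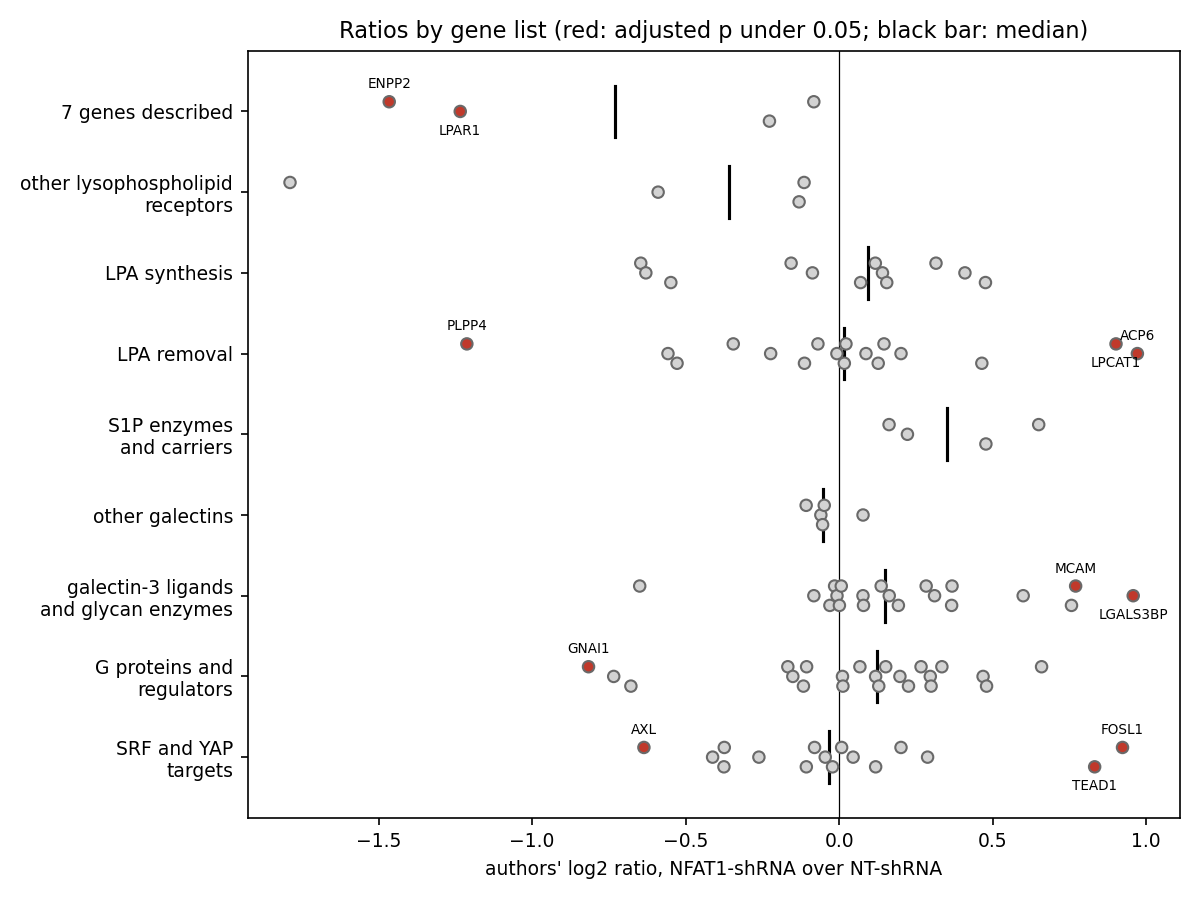
Log2 fold change of NFAT1-shRNA over NT-shRNA cells from the authors' deposited table for each gene with a ratio (points, spread vertically for legibility), by gene list, with red for an adjusted p under 0.05 and a black bar for the list's median. Labelled genes passed the test. ENPP2, LPAR1, PLPP4, GNAI1 and AXL lie on the negative side, and the grey point furthest left is GPR55, which was detected in neither line.

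Downstream of the receptors, 22 G protein subunits, effectors and regulators had a ratio, of which 0 rose, 1 fell and 21 did not pass (median 0.12). GNAI1, an inhibitory G protein alpha subunit that LPAR1 can couple to, read 156.3 ± 17.6 in NFAT1-shRNA cells and 215.0 ± 17.8 in NT-shRNA cells. Its log2 fold change in the authors' deposited table was -0.82 (interval -1.21 to -0.42, adjusted p 0.00678). With the plain quotient GNAI1 stood at -0.46 and did not pass (adjusted p 0.0794). The related subunit GNAI2 had 0.66 on its brightest probe in the authors' deposited table, and the regulators RGS4 and RGS2 had -0.73 and -0.68, none past the threshold. Other GNAI2 probes had 0.81 and -0.15 there and did not pass. GNAI2 passed as higher with the plain quotient, the quotient centred on the median of all genes, the offset of 50 and the propagated error. RGS4 passed as lower with these except the plain quotient. GNG12 had -0.11 on its brightest probe. Its other probe, detected in both lines, had -0.59 and passed over all probes (adjusted p 0.044).

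Of 16 measured targets and partners of the SRF and YAP transcription factors, which LPA is known to switch on, 2 rose, 1 fell and 13 did not pass (median -0.03). TEAD1, the DNA-binding partner of YAP, read 782.7 ± 55.0 in NFAT1-shRNA cells and 349.4 ± 42.7 in NT-shRNA cells, and its log2 fold change in the authors' deposited table was 0.83 (adjusted p 0.00029). FOSL1, an AP-1 subunit detected only in NFAT1-shRNA cells, had a bound of 1.51-fold higher there, without the error of its signal. The receptor kinase AXL fell, at -0.64 in the authors' deposited table with an adjusted p of 0.0301, but did not pass with the plain quotient. SRF itself had -0.41 and did not pass as reported. It passed as lower with the centred quotient, the mean of all probes and the propagated error. CCN2 and CCN1, LPA-responsive secreted proteins named after their values were seen, were not called: CCN2 read 652.2 in NFAT1-shRNA cells and 526.0 in NT-shRNA cells, a log2 fold change of -0.02 in the authors' deposited table, and CCN1 was detected in neither line.

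The genes nearest to ENPP2 in the log2 intensities of both lines, over these 2 lines only, were ARHGAP6, ENOX2 and ARHGAP23. ARHGAP6 read 94.0 in NFAT1-shRNA cells and 234.5 in NT-shRNA cells, and ENOX2 read 94.6 in NFAT1-shRNA cells and 176.6 in NT-shRNA cells. The log2 fold changes of ARHGAP6 and ENOX2 in the authors' deposited table were -1.62 and -1.23. ARHGAP23 read 108.8 in NFAT1-shRNA cells and 235.1 in NT-shRNA cells, but it was detected only in NFAT1-shRNA cells. Its deposited error in NT-shRNA cells was 2743, and its ratio in the authors' deposited table was 0.93, of the opposite sign to its quotient of -1.11. A likeness over 2 values says little beyond brightness and ratio.

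Autotaxin kept its direction and its call under all 8 processing alternatives. Across them the ENPP2 log2 fold change ran from -1.47 to -1.07, with adjusted p-values up to 1.86e-05. Its value could change only with the plain quotient (-1.15), the quotient centred on the median of all genes (-1.45) and the offset of 50 (-1.07). The other alternatives keep the authors' ratio, since no second probe of a member has a ratio, and so could change only the adjusted p. LPAR1 was called in 7 alternatives, each time with its undetected signal in NFAT1-shRNA cells taken at face value, so these calls say nothing beyond its bound. The filter on detection in both lines removed it. LGALS3 ran from -0.38 to -0.07 and LPAR6 from -0.08 to 0.22, never past the threshold.

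**Figure D4:**
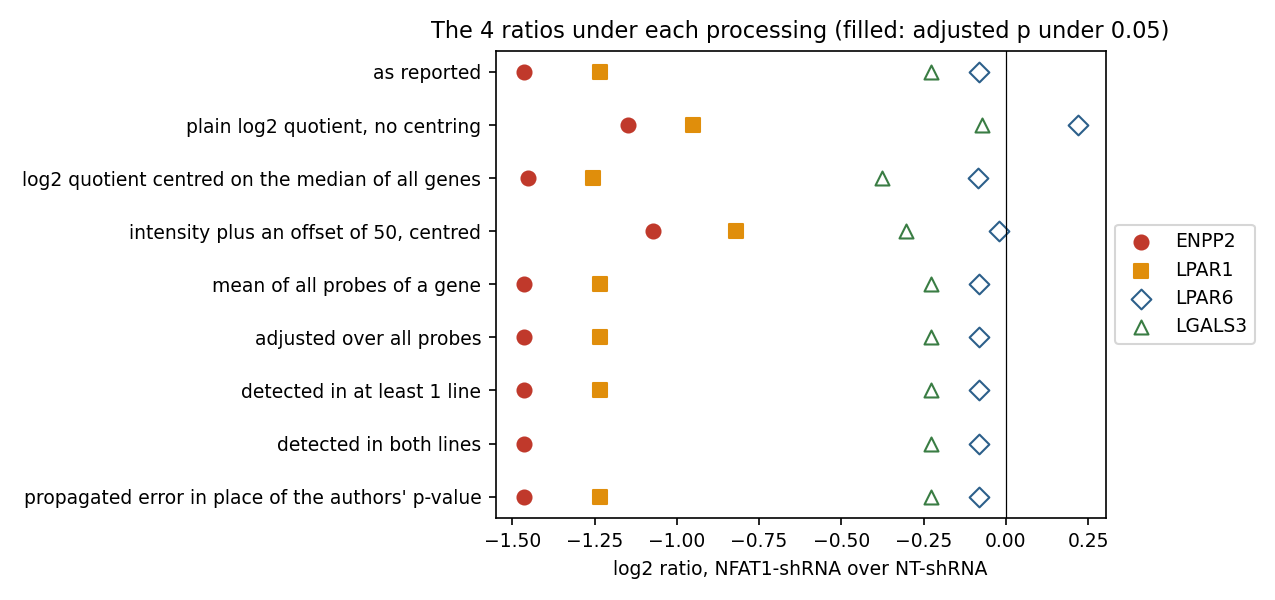
Log2 fold change of NFAT1-shRNA over NT-shRNA cells (horizontal axis) for the 4 genes with a ratio, as reported and under 8 processing alternatives (rows), with filled symbols for an adjusted p under 0.05. ENPP2 stays between -1.47 and -1.07, LPAR1, plotted with its undetected signal at face value, is absent where detection in both lines is required, and LPAR6 crosses 0 with the plain quotient.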

How the data were processed

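Total RNA of integrity numbers 9.3 to 9.9 was copied into aminoallyl-modified antisense RNA and labelled with Cy5, per the labels' protocols. These also name an Illumina chip, which does not go with the dye or the probe names, so the array maker is left unnamed. The authors deposited linear normalized intensities (below 0 for 5.54% of NFAT1-shRNA and 6.08% of NT-shRNA probes), an error in the same unit whose kind is not stated, and detection p-values, per the file headers. They also deposited a log2 ratio of the lines and its p-value, not stated to be adjusted. How they normalized and combined replicates is not stated in the labels or headers. The authors' ratio is centred near 0: its median over genes is -0.02, where the plain quotient of intensities has 0.30. The gap between them is not the same for every gene. LGALS3 has a ratio of -0.23 against a quotient of -0.07, and ARHGAP23 has 0.93 against -1.11. How the ratio was computed is not stated. The series value table held the same intensities to within 5e-07.

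Probes naming 1 gene (25650) were used, 836 naming several and 2701 naming none were not. Entrez numbers gave current symbols from RefSeq for 25400. A gene was its probe of highest mean intensity. The authors' p-values were adjusted by the Benjamini-Hochberg method over 9516 genes. Intervals of 95% take the error propagated from both deposited errors as a normal standard error. The authors' p-values implied a median 1.03 times that error, over the genes whose p-value corresponds to more than 1 standard error. A bound sets the detected signal against whichever is higher, the undetected signal or the line's dimmest detected one (78.3 in NFAT1-shRNA, 60.4 in NT-shRNA), with the median shift removed. It leaves out the deposited error of the detected signal. Planned per-array tests could not be run, since the table has 1 value per line. The adjustment was tested on simulated data. Named were all members, NFATC2, up to 4 detected genes of largest absolute ratio per list and the 3 genes nearest to ENPP2. A further planned list is not reported here. The members and lists were chosen with earlier results of these data known. Python 3.11.15, pandas 2.3.3 and scipy 1.17.1 were used.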

Additional observations from a re-analysis of the deposited data

How the results depend on the processing

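The number of changed genes was 718, and it was 2278 with the plain quotient and no centring, where 93.5% of calls were higher in NFAT1-shRNA cells against 44.4% as reported. Under the other 7 alternatives it lay between 703 and 922. The calls among the 9 pathway lists were 9. They became 35 with the plain quotient and 14 each with an offset of 50, with the mean of all probes and with the propagated error. The count of members called was 2 and became 1 with genes detected in both lines, because that filter removes LPAR1. With the plain quotient the sign turned for LPAR6 (0.22), CLC (0.25), KRT14 (0.10), LGALS1 (0.11), LGALSL (0.25) and S1PR5 (0.24), none of which passed in either setting. LGALSL stood at 0.010 with an offset of 50. With the mean of all probes, MITF turned to 0.051 and NFATC2 to -0.055. Among 36 other named genes, 27 of 285 values moved past the threshold, 2 lost it and 248 kept both direction and side. The authors' ratio minus the plain quotient was -0.32 for the median gene, and the cause of the other moves was not tested. No paired analysis was possible because the table holds 1 combined value per line, and leaving out a replicate was not possible for the same reason. Signals near the detection limit bound LPAR1 and leave LPAR2, LPAR3 and LPAR5 without a comparison.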
